A study of Homo sapiens with 9 samples.

Results

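DND-41 is an established human line of T-cell acute lymphoblastic leukemia (T-ALL). Its chromatin was mapped by CUT&RUN, a method that cuts and sequences the DNA around an antibody's target. The sites described here are RUNX1 peaks that lay outside the marks of active chromatin. They were chosen by the positions of the called peaks: a site is a RUNX1 peak that overlapped no H3K27ac peak of DMSO-treated cells, no H3K4me3 peak and no BRG1 peak by as little as 1 bp. This left 2665 of 19893 RUNX1 peaks (13.4%, exact Clopper-Pearson 95% interval 12.9 to 13.9). The H3K27ac maps come from cells given 100 nM ACBI-1, which degrades the ATPases of SWI/SNF remodeling complexes together with PBRM1, and from cells given DMSO, its vehicle. RUNX1, H3K4me3 and BRG1 carried no treatment label. Of the 9 samples, 5 had a peak list, and the 4 IgG or input controls were not analysed here.

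RUNX1 is a sequence-specific transcription factor of the blood lineages. It binds DNA with its partner CBFB and takes part in early T-cell development. H3K27ac marks active promoters and enhancers, H3K4me3 marks mainly promoters, and BRG1 is the SMARCA4 ATPase of the SWI/SNF complexes. Transcription factors can also bind DNA that carries none of these marks.

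Each target and condition had 1 library, so differences cannot be set against the spread between cultures, and p-values are not printed. The lists hold positions only, with no score or read count, so depth is unknown and a peak at the edge of detection cannot be told from a strong one. Intervals on shares cover counting error over peaks, and neighbouring peaks are not independent. The H3K27ac lists held 52967 peaks over 70.8 Mb in ACBI and 90495 peaks over 127.2 Mb in DMSO. There were 12834 H3K4me3 peaks and 7445 BRG1 peaks. Coordinates are in hg19 and count from 1. No genome or annotation of that build was used here, so the sites carry no gene names and no sequence is shown.

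The choice of the sites turned mostly on H3K27ac. RUNX1 peaks outside DMSO H3K27ac numbered 3226 (16.2% of the list). Only 561 of them overlapped another mark: 227 lay on BRG1 alone, 218 on H3K4me3 alone and 116 on both. The other 2665 are the unmarked sites. The largest class of RUNX1 peaks, 6512 peaks on DMSO H3K27ac but off H3K4me3 and BRG1, differs from them in the rule by DMSO H3K27ac alone. It is used below as the nearest comparison and called the acetylated distal peaks. Here distal only means off H3K4me3 peaks, as no gene positions were used.

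**Figure D1:**
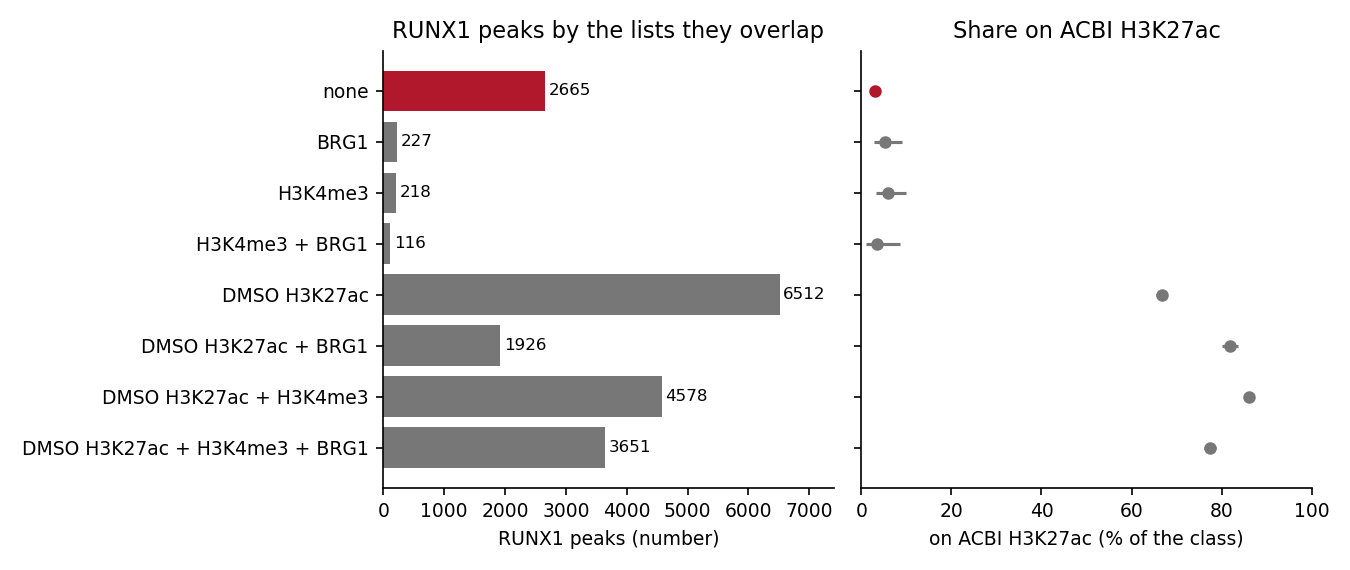
Left, number of RUNX1 peaks by the lists they overlapped by at least 1 bp, with the unmarked peaks in red. Right, share of each class on an ACBI H3K27ac peak with exact 95% intervals: the 4 classes outside DMSO H3K27ac lie between 3.08% and 5.96%, and the 4 classes inside it between 66.7% and 86.1%.

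Unmarked RUNX1 peaks were narrow. Their median width was 278 bp (quartiles 199 and 422 bp), against 373 bp (234 and 556 bp) for acetylated distal peaks and 425 bp (257 and 627 bp) for all RUNX1 peaks that met a mark. At the smallest width in the list, 175 bp, there were 345 unmarked peaks (12.9%, 11.7 to 14.3), 428 acetylated distal peaks (6.57%, 5.98 to 7.20) and 809 of all the marked peaks (4.70%, 4.38 to 5.02). Few were wide: 41 unmarked peaks reached 1 kb (1.54%, 1.11 to 2.08), against 331 acetylated distal peaks (5.08%, 4.56 to 5.64). Together the unmarked sites held 0.915 Mb of the 9.58 Mb under RUNX1 peaks.

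The share of RUNX1 peaks that was unmarked was lower in wider peaks across 10 width bins, except that peaks of 223 to 271 bp (18.999%) were level with those of 188 to 222 bp (18.9%). It was 26.2% (24.3 to 28.1) among peaks of 175 to 187 bp, 14.2% (12.7 to 15.8) among peaks of 338 to 402 bp and 3.12% (2.40 to 3.98) among peaks of 876 bp or more. A wide peak is more likely to meet another peak by 1 bp, so the rule can set part of this order. With only RUNX1 peaks of at least 500 bp, 5.73% of 7167 were unmarked.

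**Figure D2:**
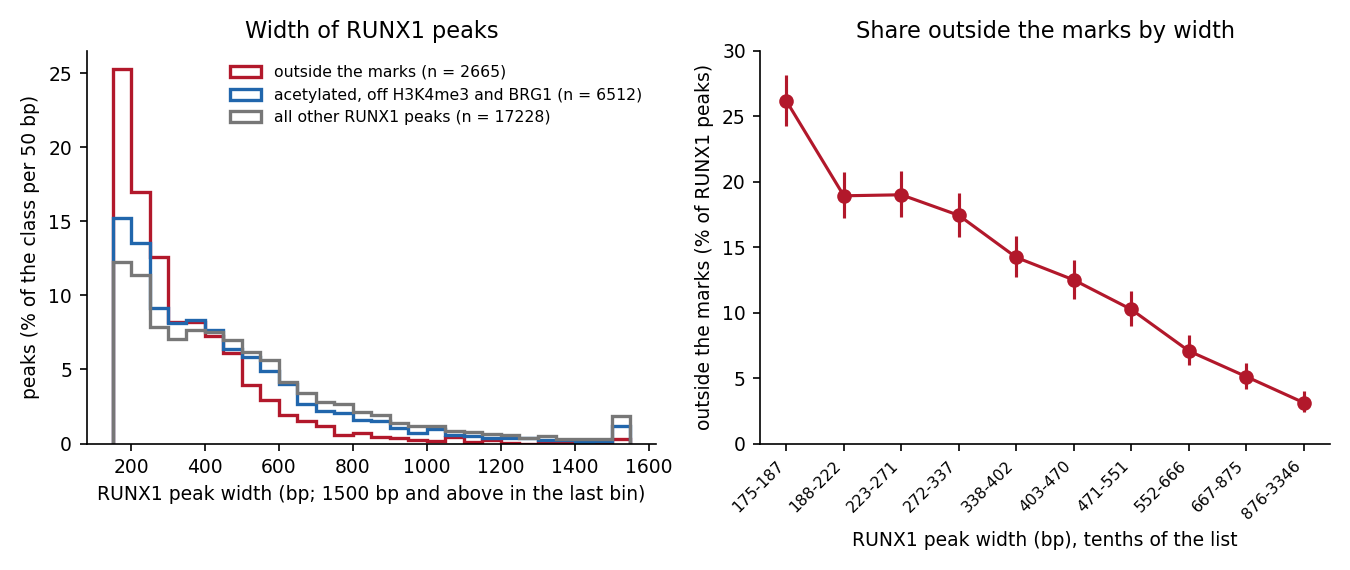
Left, width of RUNX1 peaks in bp as a percentage of each class per 50 bp, for unmarked peaks (red), acetylated distal peaks (blue) and all marked RUNX1 peaks (grey). Right, share of RUNX1 peaks that were unmarked in 10 width bins with exact 95% intervals, from 26.2% in the narrowest bin to 3.12% in the widest.

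The 10 widest unmarked peaks measured 1437 to 2794 bp. None overlapped H3K27ac in ACBI, but only 3.08% of all 2665 unmarked peaks did, so 10 peaks are too few to tell. The widest, at chr8:23076368-23079161, was 2716 bp from an H3K4me3 peak and 2908 bp from a DMSO H3K27ac peak, and 224 bp from another RUNX1 peak. The second, of 2543 bp at chr15:70783544-70786086, was 10442 bp from DMSO H3K27ac and 65789 bp from BRG1. A peak of 2084 bp at chr22:29069491-29071574 was 32574 bp from the nearest mark. Of the 10, 5 had another RUNX1 peak within 1 kb and 2 had a mark within 10 kb.

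Some of the other wide unmarked peaks stood far from every list. At chr20:48384776-48386779 (2004 bp), the nearest peaks of all other lists lay at nearly the same distance: 42161 bp to H3K4me3, 42171 bp to ACBI H3K27ac, 42189 bp to DMSO H3K27ac and 42472 bp to BRG1. The same held at chr3:17815519-17817261 (1743 bp), with 30523 bp to DMSO H3K27ac, 30536 bp to ACBI H3K27ac, 30671 bp to H3K4me3 and 30950 bp to BRG1. The site at chr1:24647906-24649536 (1631 bp) was 92574 bp from a mark, and that at chr16:50581022-50582504 (1483 bp) was 119521 bp from one. The remaining 3 were at chr10:116285583-116287112, chr15:91200082-91201611 and chr9:108167411-108168847.

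Distances from unmarked sites to marked chromatin varied widely, and no random positions were measured beside them. The median distance to the nearest marked peak was 11017 bp (quartiles 2092 and 39212 bp). A marked peak lay within 1 kb of 471 sites (17.7%), within 10 kb of 1277 (47.9%) and within 100 kb of 2371 (89.0%). The nearest mark was DMSO H3K27ac for 2111 sites, H3K4me3 for 434 and BRG1 for 125, with 5 ties counted for each list. By list, the median distance was 11830 bp to DMSO H3K27ac, 64402 bp to H3K4me3 and 87852 bp to BRG1, an order that follows the number of peaks in the lists. Counting as marked only the RUNX1 peaks covered over 50% of their length by a mark brought the median distance to 5510 bp, with overlapping peaks at 0. Among RUNX1 peaks of at least 500 bp it was 17501 bp.

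Some sites met or missed the rule by 1 bp. Sites at chr18:74922512-74922792 and chrX:12908552-12908779 touched a DMSO H3K27ac peak with no base between them, and those at chr3:141160459-141160646, chr3:194118913-194119169 and chr11:44578323-44578591 were 1 bp away from a mark. On the other side, the RUNX1 peaks at chr1:206964859-206965137, chr4:105810248-105810824, chr5:106723111-106723307, chr9:100700573-100700771 and chr14:22520233-22520461 overlapped DMSO H3K27ac by 1 bp. In all, 109 unmarked sites had a mark within 100 bp, and 202 marked RUNX1 peaks were overlapped by 100 bp at most.

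Few unmarked sites lay in small gaps of acetylated domains, though no other positions were counted for comparison. DMSO H3K27ac peaks stood within 1 kb on both sides of 59 sites (2.21%), on 1 side of 366 (13.7%) and on neither side of 2240 (84.1%). The stretch without a DMSO H3K27ac peak that held a site was a median of 81949 bp long (quartiles 26661 and 272979 bp, n = 2662 sites with such a peak on both sides of their chromosome). Sites with DMSO H3K27ac within 1 kb were themselves narrower, with a median of 230 bp, against 291 bp for the 2240 sites farther away. Of the 425 sites within 1 kb, 73 (17.2%, 13.7 to 21.1) had the smallest width in the list, against 272 (12.1%, 10.8 to 13.6) of the sites farther away. Close to a DMSO peak, a wide RUNX1 peak is more likely to overlap it and be left out. The rule can therefore set part of both differences.

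The 10 most remote sites lay 753216 to 1940317 bp from any mark. The first, at chrX:93998372-93998936 (565 bp), was 1940317 bp from the nearest marked peak, and its nearest other RUNX1 peak was 1940536 bp away. The site at chr1:80996790-80997224 (435 bp) was 1628982 bp from a mark, that at chr7:146894210-146894384 (175 bp) 1294580 bp and that at chr9:11064949-11065206 (258 bp) 1217757 bp. A peak of 936 bp at chr11:81580466-81581401 was the widest of these 10 and was 1085167 bp from a mark. The others were at chr8:88595923-88596132, chr5:58858904-58859115, chrX:139826251-139826809, chr6:120675814-120676053 and chr7:33972450-33972631, between 753216 and 1025342 bp from a mark. None of the 10 lay on ACBI H3K27ac, where 3.08% of all unmarked sites lay, so 10 sites are too few to tell. Sites more than 100 kb from any mark numbered 294 (11.03%, 9.87 to 12.3), and their median width, 295 bp, was close to that of the whole set.

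Unmarked sites lay farther from other RUNX1 peaks than acetylated distal peaks did. The nearest other RUNX1 peak was a median of 20709 bp away (quartiles 4908 and 70910 bp), against 5606.5 bp (781 and 21933 bp) for acetylated distal peaks. Another RUNX1 peak lay within 1 kb of 322 unmarked sites (12.1%, 10.9 to 13.4) and of 1813 acetylated distal peaks (27.8%, 26.8 to 28.9). More than 100 kb separated 501 unmarked sites (18.8%, 17.3 to 20.3) from their nearest RUNX1 peak, and 396 acetylated distal peaks (6.08%, 5.51 to 6.69). All RUNX1 peaks lay between these classes in median distance, at 9496 bp. Of them, 26.3% had another RUNX1 peak within 1 kb and 10.4% were more than 100 kb from one. The nearest RUNX1 peak was itself unmarked at 734 of the 2665 sites (27.5%, 25.9 to 29.3). Where it lay within 1 kb, it was unmarked at 171 of 322 sites (53.1%, 47.5 to 58.7). Unmarked sites make up 13.4% of all RUNX1 peaks, but neighbours share their surroundings, and the overlap of close pairs was not tested.

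**Figure D3:**
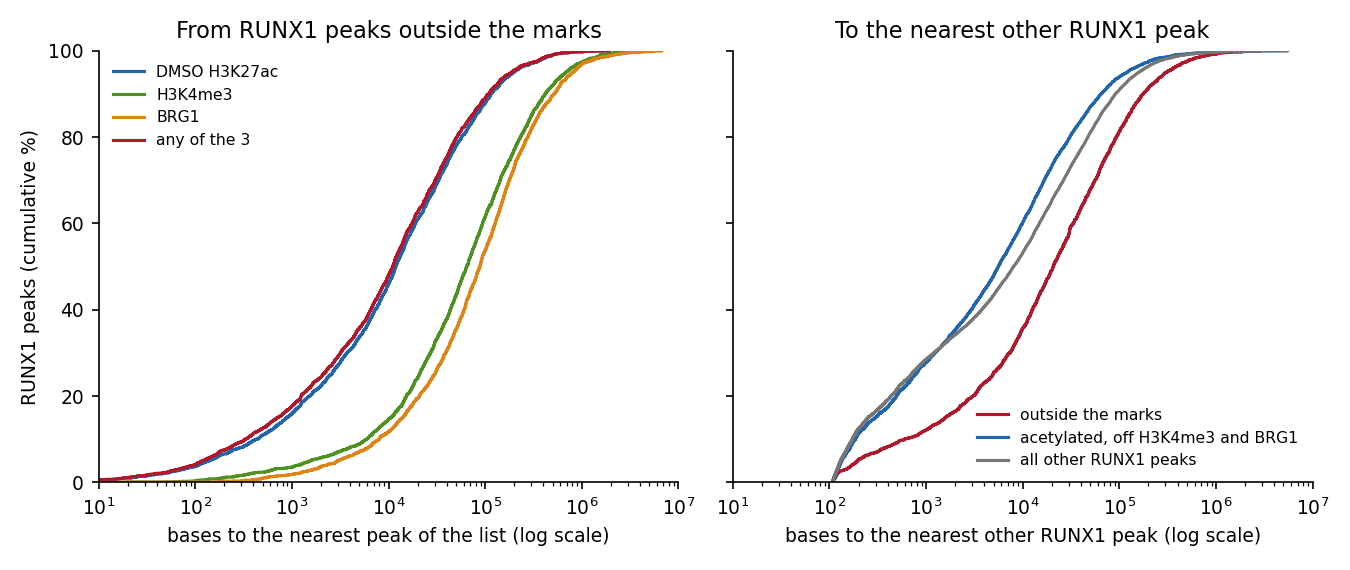
Left, cumulative percentage of the 2665 unmarked RUNX1 peaks by bases to the nearest DMSO H3K27ac, H3K4me3 or BRG1 peak or any of the 3, on a log scale, with a median of 11017 bp to any mark. Right, the same by bases to the nearest other RUNX1 peak, where the median was 20709 bp for unmarked peaks (red) and 5606.5 bp for acetylated distal peaks (blue), with all marked peaks in grey.

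Unmarked sites were found on all 22 autosomes, on X (57 sites) and on Y (8 of 27 RUNX1 peaks). Their density over the span of each chromosome that held peaks ran from 0.368 per Mb on X to 1.999 per Mb on chromosome 19, with a median of 0.932. Chromosome 19 also had the highest density of all RUNX1 peaks, at 17.4 per Mb, and X the lowest of these 23 chromosomes, at 3.35 per Mb. As a share of RUNX1 peaks, unmarked sites ranged from 9.43% on chromosome 22 (43 of 456, 6.91 to 12.5) to 18.5% on chromosome 8 (136 of 735, 15.8 to 21.5). The interval of 7 of the 23 chromosomes left out the overall 13.4%: chromosomes 4, 6, 8, 9 and 15 were above it, and 16 and 22 below. Among RUNX1 peaks of at least 500 bp, the share on chromosome 8 was 5.93% (3.36 to 9.59), and its interval then held the overall share of 5.73%.

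**Figure D4:**
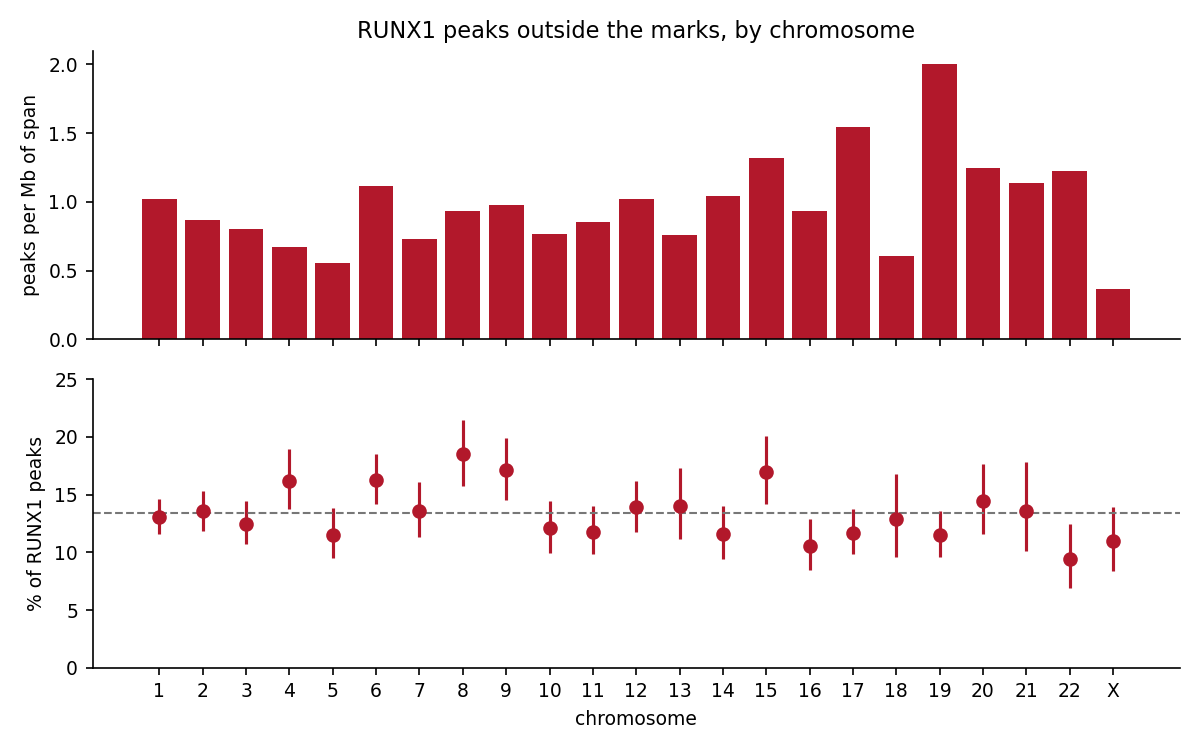
Top, unmarked RUNX1 peaks per Mb of the span between the first and last peak of any list, by chromosome, highest on 19 (1.999) and lowest on X (0.368). Bottom, the share of RUNX1 peaks that were unmarked with exact 95% intervals, and the overall share of 13.4% as a dashed line.

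Within chromosomes, most windows that held a RUNX1 peak also held an unmarked site. Of 591 windows of 5 Mb with a RUNX1 peak, 531 held an unmarked site, the median was 4 sites and 66 windows held 10 or more. The window from 45000001 to 50000000 on chromosome 19 held most, with 32 of 144 RUNX1 peaks (22.2%, 15.7 to 29.9). The next held 23 of 71 (32.4%, 21.8 to 44.5) and ran from 70000001 to 75000000 on chromosome 15, around the second widest site. Of these 23 sites, 7 lay together within 12766 bp, so the interval counts neighbours that are not independent. The third, the first 5000000 bp of chromosome 19, held 19 of 171 (11.1%, 6.82 to 16.8), a share below that of all RUNX1 peaks.

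The last comparison asked whether these sites carried H3K27ac in the cells treated with the SWI/SNF degrader. Almost none did: 82 of the 2665 sites (3.08%, 2.45 to 3.81) overlapped an ACBI H3K27ac peak, against 64.3% of all RUNX1 peaks and 66.7% (65.5 to 67.8) of acetylated distal peaks. Of all ACBI peaks, 21.4% lay wholly outside DMSO H3K27ac, so the rule itself lowers this share. The RUNX1 peaks outside DMSO H3K27ac that lay on another mark had like shares: 5.29% (2.76 to 9.05) on BRG1 alone, 5.96% (3.21 to 9.98) on H3K4me3 alone and 3.45% (0.947 to 8.59) on both. RUNX1 peaks outside all 4 other lists numbered 2583, or 13.0% of the list.

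The exchange between the conditions was uneven. Among the 9177 RUNX1 peaks off H3K4me3 and BRG1, 82 lay on H3K27ac in ACBI only, 2170 in DMSO only, 4342 in both and 2583 in neither. Choosing by the ACBI list in place of the DMSO list would leave 4753 unmarked RUNX1 peaks, of which 45.7% (44.2 to 47.1) lay on DMSO H3K27ac, beside the 3.08% on ACBI H3K27ac under the rule used here. The DMSO list is the longer, and depth, treatment and library cannot be told apart with 1 library each. With only as many of the widest DMSO peaks as the ACBI list holds, 185 of 3386 unmarked sites (5.46%, 4.72 to 6.28) lay on ACBI H3K27ac.

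The sites on ACBI H3K27ac lay closer to DMSO H3K27ac than the other unmarked sites did. The median distance to DMSO H3K27ac was 530 bp (quartiles 169 and 2360.5 bp) for the 82 sites on ACBI H3K27ac, against 12401 bp (2857.5 and 43995 bp) for the 2583 others. Within the 82, the median was 1473.5 bp for the 48 sites whose ACBI peak touched no DMSO peak and 154.5 bp for the 34 whose ACBI peak touched one. An ACBI peak that reaches both a site and a DMSO peak tends to place the site near DMSO H3K27ac. The contrast is therefore partly built in, and the shares by distance below include these 34 sites. The share on ACBI H3K27ac was 14.2% (9.41 to 20.3; 25 of 176) within 200 bp of a DMSO peak and 13.6% (7.95 to 21.1; 16 of 118) from 200 to 500 bp. From 500 bp to 1 kb it was 6.11% (2.67 to 11.7; 8 of 131), and from 10 to 30 kb it was 1.35% (0.586 to 2.65; 8 of 591). Beyond 30 kb, 3 sites were left, 1 of 527 up to 100 kb and 2 of 323 farther out. Sites with DMSO peaks within 1 kb on both sides were on ACBI H3K27ac in 25.4% of cases (15.0 to 38.4; 15 of 59), those with such a peak on 1 side in 9.29% (6.52 to 12.7; 34 of 366) and those with none in 1.47% (1.02 to 2.06; 33 of 2240).

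The total moved with the rules for overlap and width. With marks within 1 kb also counted, so that only the 2194 sites farther away remained, the share on ACBI H3K27ac was 1.46%, and it was 5.09% when a mark had to cover 50% of a RUNX1 peak. When an ACBI peak within 1 kb was accepted it was 6.60%, and among RUNX1 peaks of at least 500 bp it was 1.70%, or 7 of 411.

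Width did not order the share as steadily as distance to DMSO H3K27ac did. The share on ACBI H3K27ac was highest, at 5.38% (20 of 372), among sites of 223 to 271 bp and was 3.01% (16 of 531) among sites of 175 to 187 bp. None of the 62 sites of 876 bp or more was on ACBI H3K27ac, which allows a share of up to 4.84% at the limit of 3 counts. In the same bins, 63.2% (59.5 to 66.7), 61.8% (58.1 to 65.4) and 80.5% (76.7 to 83.9) of acetylated distal peaks were on ACBI H3K27ac. The median width was 246 bp for sites on ACBI H3K27ac and 281 bp for the others. In every bin above 271 bp the share of unmarked sites on ACBI H3K27ac was below 3.01%, with 9 such sites or fewer per bin.

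**Figure D5:**
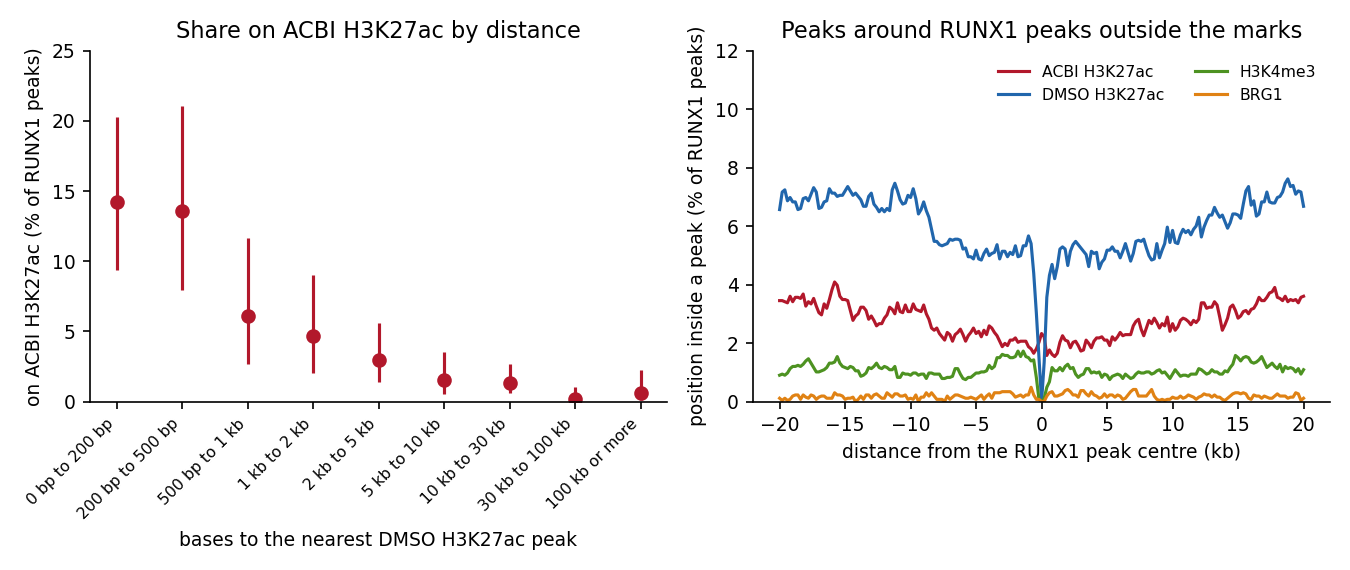
Left, share of unmarked RUNX1 peaks on ACBI H3K27ac by bases to the nearest DMSO H3K27ac peak, with exact 95% intervals, from 14.2% within 200 bp to 0.619% at 100 kb or more. Right, percentage of unmarked RUNX1 peaks with a peak of each list at a given distance in kb from their centre; DMSO H3K27ac is at 0 at the centre because the rule leaves it out, and the mean over both sides at 20 kb was 3.53% for ACBI H3K27ac and 6.62% for DMSO H3K27ac.

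Fewer positions around unmarked sites than around acetylated distal peaks, which were chosen for acetylation, lay in H3K27ac peaks. At 5 kb from their centres, as a mean over both sides, 2.21% of unmarked sites had an ACBI H3K27ac peak and 5.18% a DMSO H3K27ac peak. At the centres themselves 2.33% lay in an ACBI H3K27ac peak, close to the share at 5 kb. The values at 5 kb for acetylated distal peaks were 20.1% in ACBI and 31.8% in DMSO. H3K4me3 stood at 0.938% of positions 5 kb from unmarked sites and BRG1 at 0.113%. At 20 kb the H3K27ac values near unmarked sites were 3.53% in ACBI and 6.62% in DMSO, against 14.0% in ACBI and 23.6% in DMSO near acetylated distal peaks.

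The 82 sites met 81 ACBI peaks, of which 47 touched no DMSO peak anywhere (58.0%, 46.5 to 68.9), beside 21.4% of all ACBI peaks. The sites lie outside DMSO H3K27ac by the rule, so a higher share here is partly built in. The median width was 487 bp for these 47 peaks and 1443.5 bp for the 34 that did reach a DMSO peak. All ACBI peaks that touched no DMSO peak had a median of 378 bp, and 47 of these 11324 peaks (0.415%, 0.305 to 0.552) held an unmarked RUNX1 site. ACBI H3K27ac covered 34 of the 82 sites over their whole length, and a median of 196 bp per site.

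The 10 sites on the widest ACBI peaks all lay on peaks that also reached DMSO H3K27ac. The first, at chr11:36700523-36700743, was 2425 bp from a DMSO peak, and 109 of its 221 bp lay in an ACBI peak of 24498 bp, of which 21288 bp overlapped DMSO peaks. A site of 175 bp at chr13:114890462-114890636 lay wholly inside an ACBI peak of 14956 bp and 225 bp from a DMSO peak. Another of that width at chr18:12736041-12736215 was 104 bp from one, inside an ACBI peak of 8115 bp. At chr2:174223878-174224369 the whole 492 bp were in an ACBI peak of 6597 bp, with DMSO H3K27ac 34 bp away.

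The other sites of this group were chr8:82010755-82011115, chr2:75067462-75067767, chr15:56788798-56789068, chr16:19707752-19708092, chr18:74922512-74922792 and chr6:7314163-7314430, on ACBI peaks of 2677 to 5683 bp. At chr2:75067462-75067767 the ACBI peak of 5618 bp overlapped DMSO H3K27ac over 1752 bp, and 280 of the 306 bp of the site lay in it. The widest ACBI peak free of DMSO H3K27ac that held an unmarked site measured 2019 bp and lay on chromosome 20 (25239318 to 25241336). It covered the whole 206 bp of the site at chr20:25240554-25240759, which was 1320 bp from a DMSO peak. The next such peak, of 1337 bp, covered the 301 bp site at chr4:95987178-95987478, 2167 bp from DMSO H3K27ac and 2382 bp from H3K4me3. These last 2 sites were chosen after their values were seen.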

How the data were processed

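Per the labels' protocols, chromatin was cut by micrococcal nuclease tethered through protein A/G and read from both ends. The authors deposited 4 columns per list (the chromosome, both ends and the name of each peak), so the values used are positions in bp, with no signal. Coordinates refer to hg19, and MACS2 and SEACR are listed as tools, per the submitters' processing notes. MACS2 made the RUNX1 peaks, and the H3K27ac peaks are broad peaks under a limit on the q-value, per the file headers. For the RUNX1, H3K4me3 and BRG1 lists the threshold is not given in the sources used here, nor for any list are the aligner, the use of controls and any pooling. The control for RUNX1 is titled as an input, the others as IgG.

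Overlaps (at least 1 bp) and distances (bases between the ends of peaks) were computed with pandas 2.3.3, numpy 2.4.6 and scipy 1.17.1 under Python 3.11.15, and figures were drawn with matplotlib 3.10.9. They were tested on simulated intervals and checked against bedtools 2.31.1, with 0 of 19893 RUNX1 peaks differing for each of the 4 other lists. Samples were grouped by antibody and treatment in their titles, with 1 library per group, which allows no test between conditions. Shares carry exact Clopper-Pearson 95% intervals.

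The rule for the sites and the lists were chosen with earlier results of these data known. The rule for named sites takes the 10 widest sites, the 10 farthest from a mark on the autosomes and X, the 10 on the widest ACBI peaks, the 3 windows of 5 Mb with most sites, and 5 sites on each side of the overlap rule. Alternatives were other overlap rules, minimum widths, other chromosomes and list lengths.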

Additional observations from a re-analysis of the deposited data

How the results depend on the processing

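Of 37 alternative values, 11 fell inside the 95% interval of the value in the report and 26 outside it. The intervals cover counting over peaks only. For medians they come from binomial ranks, and were 272 to 287 bp for width and 10075 to 11811 bp for distance. The share of RUNX1 peaks that was unmarked was 16.9% when a mark had to cover 50% of the peak, 11.03% when a mark within 1 kb counted, 5.73% for RUNX1 peaks of at least 500 bp and 16.2% with H3K27ac peaks of at least 500 bp. It was 17.02% with as many of the widest DMSO peaks as in ACBI, and 12.4% for RUNX1 peaks above the smallest width, both chosen after seeing the data. In that order of settings, the median width was 310, 293, 622, 291, 291 and 309 bp, where the third and last follow from the setting itself. The median distance to a mark was 5510, 16369.5, 17501, 14435 and 15240 bp under the first 5. The share on ACBI H3K27ac was 5.09%, 1.46% and 1.70% under the first 3, 5.46% with the widest DMSO peaks, 2.21% when an ACBI peak had to cover 50% of the site and 6.60% when one within 1 kb was accepted. On chromosome 8 the unmarked share was 15.4% with marks within 1 kb counted, 5.93% for RUNX1 peaks of at least 500 bp and 21.6% with the widest DMSO peaks. Except where said, the cause was not tested. No value for the autosomes and X only moved. No paired analysis was possible because the H3K27ac groups share only 1 replicate number and no test was made. Depth is unknown, so narrow peaks and low H3K27ac near the caller's limit cannot be judged.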

Other observations

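Some unmarked RUNX1 sites came in runs, described here because their values stood out. Joining unmarked sites that were consecutive RUNX1 peaks no more than 10 kb apart gave 185 runs of 2 or more with 408 sites (15.3%) and 2257 single sites. The longest run held 7 sites over 12766 bp on chromosome 15 (70773838 to 70786603), with widths of 227, 180, 175, 848, 175, 2543 and 175 bp along the chromosome. Its first site was 736 bp from a mark and its last 13327 bp, and none overlapped ACBI H3K27ac, which lay 28827 bp or more away. A run of 6 sites on chromosome 14 (25129478 to 25148456) was 13663 bp or more from any mark. In ACBI, H3K27ac covered 386 bp of its 732 bp site at chr14:25142663-25143394 and 156 bp of its 477 bp site at chr14:25143509-25143985, while the nearest marked peaks were 18725 and 18134 bp away from these sites. The next runs held 4 sites each, on chromosome 17 (40608531 to 40612355) and on chromosome 10 (121072782 to 121075482), with none on ACBI H3K27ac.

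The DMSO H3K27ac peak nearest to a site had a median width of 619 bp for the 425 sites with such a peak within 1 kb and 752 bp for the 2240 sites farther away, against 741 bp for all DMSO peaks. In ACBI, 290 of these 425 sites (68.2%, 63.6 to 72.6) had that nearest DMSO peak without any overlapping ACBI peak, and 1412 of the 2240 sites farther away did (63.04%, 61.0 to 65.04). Of all 90495 DMSO peaks, 59.1% had no overlapping ACBI peak. The shares by site can count the same DMSO peak for several sites, and the part of peak width was not tested.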
